A study of Mus musculus with 24 samples.

Results

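The 54 genes described here encode the subunits and inhibitors of NF-kB, cytokines, chemokines, prostaglandin enzymes, adhesion molecules, receptors and acute-phase products. They were chosen by name as a list of inflammatory genes, and no threshold on a measured value was used. The list was made with earlier results of these data known. The numbers of members called below therefore only describe the list, also where the share of all genes stands beside them. All 54 were found among the 47480 genes of the count table, and 44 of them were among the 14772 genes that passed a filter on low counts and were tested. RNA had been sequenced from mouse embryonic fibroblasts (MEFs), connective-tissue cells grown from embryos, labelled as wild type. The cells carried a control siRNA (siCTRL) or siCop1, an siRNA against the ubiquitin ligase component Cop1. They were given DMSO, the solvent control, or KL001, a compound known to stabilise the cryptochrome clock proteins, and were either left without Dexa or treated with it. The 8 groups of 3 libraries each, 24 in all, were siCTRL DMSO, siCTRL DMSO Dexa, siCTRL KL001, siCTRL KL001 Dexa, siCop1 DMSO, siCop1 DMSO Dexa, siCop1 KL001 and siCop1 KL001 Dexa. The labels give no dose, duration or cell passage, do not spell out the name Dexa, and name no inflammatory stimulus, so the levels are those of cells not labelled as stimulated. They also do not say whether replicates came from separate cultures, and the p-values then measure only the spread between these libraries, which may be technical.

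NF-kB transcription factors are dimers of Rel-family proteins that IkB proteins hold inactive in the cytoplasm. Signals from tumour necrosis factor and interleukin 1 receptors lead to the degradation of IkB, and the freed dimers switch on chemokines, cytokines, adhesion molecules and their own inhibitors. The glucocorticoid receptor is known to restrain many of these targets and to induce inhibitors of the pathway, and fibroblasts are a known tissue source of chemokines and interleukin 6 family cytokines.

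The libraries held 21409988 to 27875023 counts in genes, with a median of 25337292. The knockdown target, listed in the count table under its older symbol Rfwd2, lay between 25.0 and 29.7 CPM (counts scaled to library size) in the siCTRL libraries and between 4.33 and 5.79 CPM in the siCop1 libraries, with no overlap. The 9 fibroblast markers summed to 35019 to 50771 CPM in every library, although Dcn and Lum, markers of many fibroblasts, had medians of only 2.71 and 0.61 CPM. The 10 macrophage markers summed to 2.92 to 15.6 CPM, with Adgre1 at 0 in 16 libraries and Lyz2 and Cd68 at 0 in none. The 8 airway epithelium markers summed to 8.23 to 72.3 CPM, most of it Bpifa1, and the 6 squamous epithelium markers to 6.54 to 79.0 CPM. The 7 heart muscle markers summed to 0.80 to 90.6 CPM and the 5 endothelium markers to 0.73 to 3.03 CPM, while the 5 lymphocyte markers did not pass 0.168 CPM. In 4 libraries, picked after the data were seen, a heart muscle or squamous sum stood well apart from that of the other replicates. The heart muscle sum was 90.6 CPM in siCTRL DMSO Dexa replicate 2, 83.4 CPM in siCTRL KL001 replicate 2 and 21.02 CPM in siCTRL KL001 Dexa replicate 2, against at most 1.25 CPM in the other libraries of these groups, and the squamous sum was 79.0 CPM in siCop1 DMSO Dexa replicate 1, against at most 18.0 CPM in its group. Without these 4 libraries, the numbers of members called, given first for the full set, were 26 and 25 for Dexa in siCTRL DMSO, 29 and 24 in siCTRL KL001, 28 and 26 in siCop1 DMSO, and 23 and 24 in siCop1 KL001. In bulk RNA of this kind, fewer cells of a type and less RNA per cell cannot be told apart.

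The DNA just upstream of 6 members is shown because it holds the letters of the classical kappaB site in Nfkbia, which rose with Dexa in siCTRL DMSO cells, in Nfkbie and Cxcl1, which fell there, in Cxcl10, which had no call there, in Cxcl2, which was not tested, and not in Ptgs2, which fell there. The RefSeq table for GRCm38.p6 held a promoter window, 250 bases before to 50 after the start, for 41 of the 54 members. Some genes had more than 1 window, and a gene was counted where any of its windows held a match. A match to the kappaB consensus, searched on both strands, was found for 15 of these 41 members, or 36.6%, against 5.14% of all 27025 genes. The AP-1 site TGANTCA was found for 8 of the 41 members, or 19.5%, against 8.97% of all genes. The glucocorticoid response element, GNACA and TGTNC with 3 bases of any kind between them, was found for 0 of the 41 members against 0.537% of all genes. Of the members in the table, the kappaB consensus was found in 6 of the 13 that fell with Dexa in siCTRL DMSO cells, in 2 of the 5 that rose and in 4 of the 15 that were tested and not called. A match of letters is a description of the window and not evidence of binding. The 130 bases before the start are printed 5′ to 3′ on the gene's strand, with capitals marking the letters that match the kappaB consensus, overlapping matches on opposite strands included. They lie at chr12:55492648-55492777 on the minus strand for Nfkbia, chr17:45555570-45555699 on the plus strand for Nfkbie, chr5:90891115-90891244 on the plus strand for Cxcl1, chr5:90903769-90903898 on the plus strand for Cxcl2, chr5:92348890-92349019 on the minus strand for Cxcl10 and chr1:150099901-150100030 on the plus strand for Ptgs2.
Nfkbia: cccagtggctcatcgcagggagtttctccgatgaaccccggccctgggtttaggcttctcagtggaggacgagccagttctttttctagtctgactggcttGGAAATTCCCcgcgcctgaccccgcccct
Nfkbie: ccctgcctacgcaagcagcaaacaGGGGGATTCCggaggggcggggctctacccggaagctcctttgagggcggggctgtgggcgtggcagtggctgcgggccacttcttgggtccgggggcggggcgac
Cxcl1: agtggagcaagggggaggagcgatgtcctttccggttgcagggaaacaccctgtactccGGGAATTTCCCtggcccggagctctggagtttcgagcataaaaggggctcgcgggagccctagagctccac
Cxcl2: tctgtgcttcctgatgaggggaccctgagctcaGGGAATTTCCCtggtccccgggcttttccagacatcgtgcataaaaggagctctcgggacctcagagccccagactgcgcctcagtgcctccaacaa
Cxcl10: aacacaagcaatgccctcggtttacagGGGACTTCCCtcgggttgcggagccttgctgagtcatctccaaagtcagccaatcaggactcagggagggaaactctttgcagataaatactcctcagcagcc
Ptgs2: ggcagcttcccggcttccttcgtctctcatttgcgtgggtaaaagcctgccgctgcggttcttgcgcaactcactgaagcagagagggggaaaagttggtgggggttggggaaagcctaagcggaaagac

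In control cells, Dexa lowered 6 of the 11 chemokine transcripts that were tested, together with Ptgs2, Vcam1, Il7 and the NF-kB subunits Relb and Nfkb2, and raised the inhibitor Nfkbia. Of the 44 tested members, 26 changed with Dexa in siCTRL DMSO cells, 19 of them lower and 7 higher, where 26.8% of all tested genes changed, 12.7% higher and 14.1% lower. These calls rest on the quasi-likelihood test of edgeR, its p-values adjusted by the Benjamini-Hochberg method over all 14772 genes, and a gene is said to rise, fall or change where the adjusted p was below 0.05. The heart muscle markers differed between these groups, with sums of 60.02, 17.0 and 24.2 CPM in siCTRL DMSO and 1.25, 90.6 and 0.797 CPM in siCTRL DMSO Dexa libraries, and their part in the Dexa result was not tested. The median log2 change of the tested members was -0.22, beside -0.01 for all tested genes. Changes are log2 ratios of the Dexa group to its control, given with their standard error (SE), and levels are CPM on the scale of trimmed means, which compares 1 gene across libraries and not different genes with each other. Single calls were recomputed under 12 alternatives in scaling, filter, model and libraries left out, 18 for a difference between Dexa changes within 1 compound and 29 for one averaged over both.

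**Figure D1:**
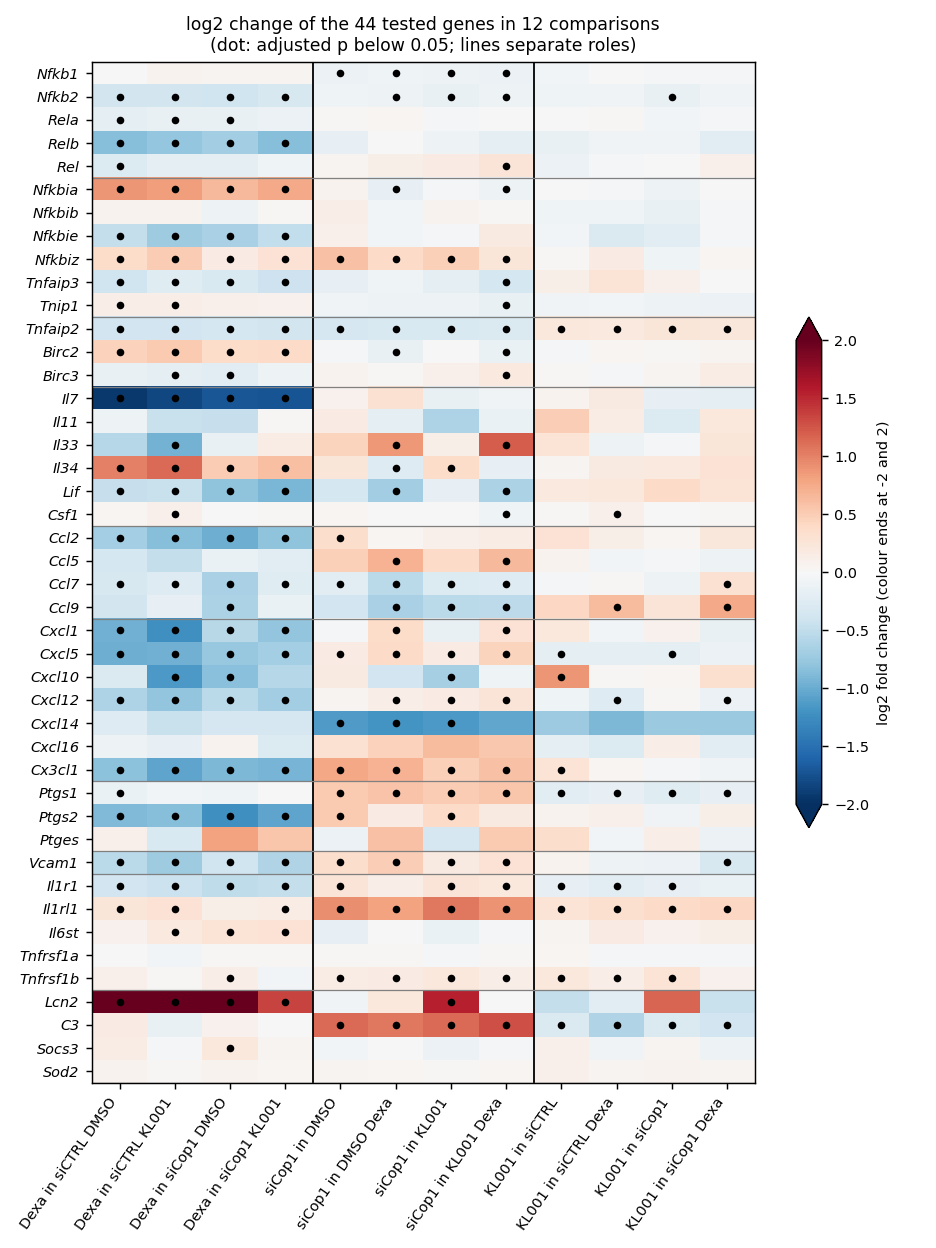
Log2 change of the 44 tested genes (rows, ordered by role) in the 12 comparisons that differ in 1 treatment (columns: Dexa, then siCop1, then KL001); a dot marks an adjusted p below 0.05. The 4 Dexa columns repeat the same rows of falls and rises, the siCop1 columns are led by C3, Il1rl1 and Cx3cl1, and the KL001 columns hold few dots.

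Among the NF-kB subunits, 4 of 5 fell with Dexa in siCTRL DMSO cells, beside 14.1% of all tested genes, with the largest change in Relb. Relb, the partner of p52 in that pathway, measured 24.3, 23.2 and 23.7 CPM without Dexa and 13.6, 11.6 and 14.0 CPM with it. The highest Dexa library stood far below the lowest control (log2 change -0.86, SE 0.073, adjusted p = 8.77e-11). Nfkb2, which encodes the p52 precursor, measured 92.1, 88.0 and 89.3 CPM against 70.9, 67.6 and 70.6 CPM. These groups did not overlap either, at a smaller distance (log2 change -0.37, SE 0.032, adjusted p = 1.68e-10). A gene on the opposite strand overlaps 18.1% of the exon bases of Nfkb2, and whether strand was used in the counting is not given in the sources used here. Rela, the p65 subunit of the classical dimer, went from 108, 108 and 104 CPM to 93.7, 95.6 and 94.9 CPM, a fall to 88.7% of control (log2 change -0.17, SE 0.042, adjusted p = 0.00202). Rel, the c-Rel subunit, measured 17.0, 18.1 and 20.3 CPM and 13.8, 16.4 and 15.9 CPM, groups that came close to touching (log2 change -0.27, SE 0.089, adjusted p = 0.0256). Its call was lost without siCTRL DMSO replicate 2 (-0.27, adjusted p = 0.0559), without siCTRL DMSO replicate 3 (-0.18, adjusted p = 0.208) and without siCTRL DMSO Dexa replicate 1 (-0.18, adjusted p = 0.205). Nfkb1, which encodes the p50 precursor, did not pass the test, at 113, 112 and 111 CPM without Dexa and 113, 115 and 111 CPM with it (log2 change 0.01, SE 0.030, adjusted p = 0.838).

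Genes of IkB and IkB-like proteins, a ubiquitin editor and its partner did not move as 1 group. Of these 6, 3 rose and 2 fell, beside 12.7% and 14.1% of all tested genes. Nfkbia, which encodes IkB alpha and carries the kappaB letters printed above, measured 40.7, 39.5 and 39.2 CPM without Dexa and 75.2, 70.9 and 74.2 CPM with it. Every Dexa library stood above every control, and the mean went from 39.8 ± 0.744 to 73.4 ± 2.27 CPM (SD, n = 3; log2 change 0.88, SE 0.044, adjusted p = 3.64e-16). Nfkbie, the gene of IkB epsilon, has a kappaB match too and moved the opposite way, from 5.63, 6.06 and 6.24 CPM to 4.51, 3.99 and 4.34 CPM. All its Dexa libraries were below all controls (log2 change -0.48, SE 0.091, adjusted p = 0.000136). Nfkbiz encodes an IkB-like protein that acts in the nucleus, and it rose from 12.6, 14.8 and 13.3 CPM to 17.6, 16.2 and 18.2 CPM. The lowest Dexa library exceeded the highest control (log2 change 0.36, SE 0.062, adjusted p = 3.19e-05). Tnfaip3 encodes the ubiquitin editor A20, a feedback inhibitor of the pathway, and fell from 9.38, 10.4 and 10.05 CPM to 7.78, 8.33 and 6.50 CPM. The groups were separate (log2 change -0.40, SE 0.092, adjusted p = 0.00106). The small rise of Tnip1, the A20-binding partner (log2 change 0.13, SE 0.048, adjusted p = 0.0491), did not hold in 7 of 12 alternatives, among them leaving out siCTRL DMSO replicate 1 (adjusted p = 0.223), siCTRL DMSO replicate 3 (0.0527) or siCTRL DMSO Dexa replicate 1 (0.116). The other IkB gene, Nfkbib, had no call (log2 change 0.08, SE 0.071, adjusted p = 0.488).

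Among 3 further tested genes of the tumour necrosis factor pathway, Birc2, which encodes the ubiquitin ligase cIAP1, rose from 45.2, 46.6 and 47.6 CPM to 63.1, 62.5 and 66.6 CPM. The groups did not overlap (log2 change 0.46, SE 0.050, adjusted p = 1.04e-08). Tnfaip2, a cytokine-induced gene, fell from 91.0, 93.8 and 90.4 CPM to 69.4, 71.6 and 69.9 CPM, with Dexa libraries all lower (log2 change -0.38, SE 0.035, adjusted p = 4.38e-10). Birc3, the gene of cIAP2, was not called (log2 change -0.15, SE 0.068, adjusted p = 0.109).

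The largest fall of any tested member was that of the cytokine Il7, and the second largest rise that of the cytokine Il34. Il7, a growth factor for lymphocyte precursors, measured 2.27, 1.5997 and 2.62 CPM without Dexa and 0.584, 0.746 and 0.399 CPM with it. All Dexa libraries were below 1 CPM and all controls above (log2 change -1.92, SE 0.24, adjusted p = 1.53e-07). Il34 encodes a ligand of the CSF1 receptor that supports macrophages, and it rose from 5.56, 4.67 and 5.64 CPM to 10.5, 9.52 and 11.9 CPM. The mean of the Dexa group was 201% of control, with no overlap (log2 change 1.01, SE 0.094, adjusted p = 6.12e-10). Csf1, the gene of the other ligand of that receptor, stayed at 309 ± 7.55 and 317 ± 9.36 CPM with no call (SD, n = 3; log2 change 0.04, SE 0.029, adjusted p = 0.422). Lif, an interleukin 6 family cytokine, fell from 3.74 ± 0.121 to 2.70 ± 0.444 CPM (log2 change -0.46, SE 0.14, adjusted p = 0.0117). That call was lost in 3 of 12 alternatives, among them leaving out siCTRL DMSO Dexa replicate 2 (-0.36, adjusted p = 0.0799) or siCTRL DMSO Dexa replicate 3 (-0.42, adjusted p = 0.0517). Il11 and Il33 were not called, at log2 changes of -0.10 ± 0.43 and -0.57 ± 0.34 (SE).

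Chemokines attract leukocytes along gradients. Of the 11 that were tested, 6 fell with Dexa and 0 rose in siCTRL DMSO cells, beside 14.1% and 12.7% of all tested genes. Cxcl1, a neutrophil attractant with overlapping kappaB matches on both strands of its promoter, measured 27.99, 27.7 and 27.7 CPM without Dexa and 14.6, 12.6 and 15.7 CPM with it. The controls lay within a narrow band and the Dexa libraries near 51.5% of it (log2 change -0.96, SE 0.074, adjusted p = 1.14e-11). Its relative Cxcl5 measured 277, 244 and 254 CPM and 135, 126 and 133 CPM. Again no Dexa library reached a control (log2 change -0.98, SE 0.058, adjusted p = 2.98e-12). Cx3cl1, the membrane-bound chemokine fractalkine, fell from 42.2, 41.4 and 40.6 CPM to 22.9, 24.2 and 23.7 CPM. The replicate spread was small against that step (log2 change -0.81, SE 0.052, adjusted p = 1.26e-13). Cxcl12, which retains stem cells and leukocytes through CXCR4, went from 642, 616 and 620.0 CPM to 416, 414 and 394 CPM. Its groups lay far apart (log2 change -0.62, SE 0.030, adjusted p = 2.26e-16). Ccl2, the monocyte attractant MCP-1, measured 12.05, 11.5 and 11.9 CPM and 6.77, 8.33 and 7.05 CPM, with all Dexa libraries lower (log2 change -0.68, SE 0.12, adjusted p = 5.45e-05). Ccl7, its neighbour in function, fell less (log2 change -0.32, SE 0.071, adjusted p = 0.000786). The interferon-induced Cxcl10, whose promoter holds a kappaB match and an AP-1 match, was not called here (log2 change -0.29, SE 0.27, adjusted p = 0.509), and neither were Ccl5, Ccl9, Cxcl14 and Cxcl16, with log2 changes from -0.37 to -0.10.

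**Figure D2:**
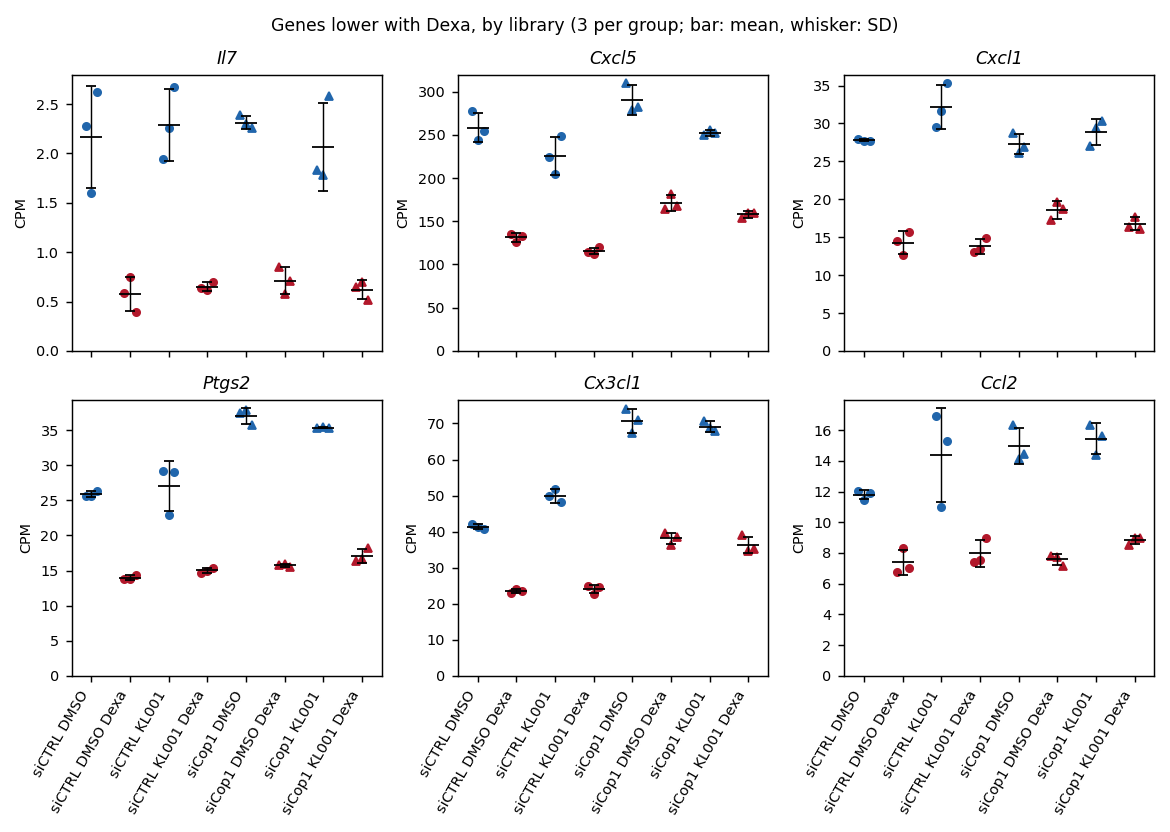
CPM (vertical axis) of 6 genes that fell with Dexa, for each library of the 8 groups (circles siCTRL, triangles siCop1, blue without Dexa, red with Dexa; horizontal bar the mean, whisker the SD, 3 libraries per group). In every panel the red points lie below the blue points of the same siRNA and compound. The red triangles of Cxcl1, Cxcl5, Cx3cl1 and Ptgs2 lie above the red circles of the same compound.

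Both cyclooxygenases and the adhesion molecule Vcam1 fell as well. Ptgs2, the inducible cyclooxygenase COX-2, measured 25.6, 25.6 and 26.3 CPM without Dexa and 13.9, 13.7 and 14.3 CPM with it. The Dexa libraries were tightly grouped at 54.1% of control (log2 change -0.89, SE 0.067, adjusted p = 7.81e-12). The printed stretch of the Ptgs2 promoter holds no kappaB match. Ptgs1, the constitutive cyclooxygenase, fell by 0.13 on the log2 scale (69.6 ± 1.20 to 63.6 ± 2.77 CPM, SD, n = 3; adjusted p = 0.0116). This call was lost in 5 of 12 alternatives. They were no filter (adjusted p = 0.0527), the fit on the groups compared (0.0665) and leaving out siCTRL DMSO replicate 2 (-0.11, adjusted p = 0.0818), siCTRL DMSO Dexa replicate 1 (-0.10, adjusted p = 0.0893) or siCTRL DMSO Dexa replicate 3 (-0.10, adjusted p = 0.121). Ptges, a prostaglandin E synthase, lay between 0.168 and 0.850 CPM over all libraries and was not called. Vcam1, an adhesion molecule that binds leukocyte integrins, fell from 78.3, 74.0 and 79.0 CPM to 52.2, 54.6 and 52.4 CPM. No Dexa library reached the controls (log2 change -0.54, SE 0.045, adjusted p = 4.75e-11). Endothelial cells also express Vcam1 and Cx3cl1. The summed endothelium markers were 2.30 to 3.03 CPM in siCTRL DMSO and 1.36 to 1.97 CPM in siCTRL DMSO Dexa libraries. Of these markers, Cdh5 was at 0 in 7 of all 24 libraries, Emcn in 6, Pecam1 in 1, and Kdr and Tek in none. The part of endothelial cells in these falls was not tested.

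Of the 5 receptors, Il1r1, the signalling receptor for interleukin 1, fell from 40.0, 39.8 and 41.0 CPM to 28.3, 31.4 and 32.6 CPM, separate groups (log2 change -0.39, SE 0.052, adjusted p = 6.54e-07). Il1rl1, the receptor for interleukin 33, rose from 84.5, 83.4 and 87.8 CPM to 92.8, 104 and 107 CPM, also without overlap (log2 change 0.25, SE 0.049, adjusted p = 0.000189). Il6st, the shared gp130 chain, and the tumour necrosis factor receptors Tnfrsf1a and Tnfrsf1b had no call in siCTRL DMSO cells. Without siCTRL DMSO Dexa replicate 1, Il6st (0.18, adjusted p = 0.0247) and Tnfrsf1b (0.18, adjusted p = 0.00186) passed as higher. Il6st also passed with no filter (adjusted p = 0.0427). It was lowest in replicate 1 of both groups, at 486 CPM without Dexa and 501 CPM with it. Among the effectors, Lcn2, which encodes an iron-scavenging acute-phase protein, showed the largest rise of any tested member. It measured 0.253, 0.842 and 1.03 CPM without Dexa and 5.18, 4.39 and 3.67 CPM with it. The replicates varied several-fold around low levels, yet the groups did not overlap (log2 change 2.67, SE 0.45, adjusted p = 0.000133). The complement gene C3, the cytokine-signalling inhibitor Socs3 and the superoxide dismutase Sod2 were not called, with log2 changes of 0.16 ± 0.079, 0.15 ± 0.061 and 0.07 ± 0.037 (SE).

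**Figure D3:**
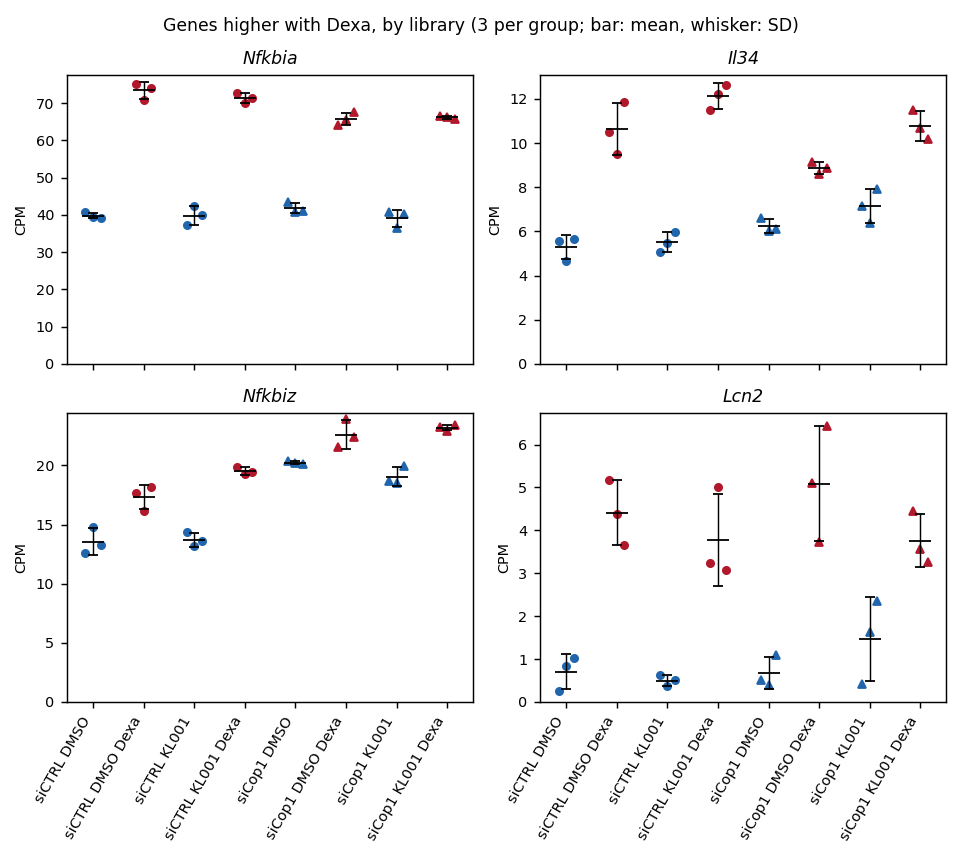
CPM (vertical axis) of 4 genes that rose with Dexa, for each library of the 8 groups (circles siCTRL, triangles siCop1, blue without Dexa, red with Dexa; horizontal bar the mean, whisker the SD, 3 libraries per group). Red points lie above the blue points of the same siRNA and compound in all 4 panels, the red triangles of Nfkbia lie lower than the red circles, those of Il34 do so in DMSO and overlap them under KL001, and the Lcn2 libraries scatter widely.

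Dexa also changed members under KL001, after Cop1 knockdown, and with both. In siCTRL KL001 cells 20 of the 44 members fell and 9 rose (26.8% of all tested genes changed, 12.7% higher and 14% lower), in siCop1 DMSO cells 20 fell and 8 rose (23.7%, 12% higher and 11.6% lower), and in siCop1 KL001 cells 16 fell and 7 rose (24.5%, 12.1% higher and 12.4% lower). The 4 comparisons use separate libraries. The 16 members that fell in all 4 were Nfkb2, Relb, Nfkbie, Tnfaip3, Tnfaip2, Il7, Lif, Ccl2, Ccl7, Cxcl1, Cxcl5, Cxcl12, Cx3cl1, Ptgs2, Vcam1 and Il1r1. The 5 that rose in all 4 were Nfkbia, Nfkbiz, Birc2, Il34 and Lcn2. Of these falls, that of Tnfaip3 was lost in siCTRL KL001 in 7 of 12 alternatives, among them leaving out siCTRL KL001 replicate 3 (adjusted p = 0.333), siCTRL KL001 Dexa replicate 1 (0.129), siCTRL KL001 Dexa replicate 2 (0.0547) or siCTRL KL001 Dexa replicate 3 (0.096). In siCop1 DMSO it was lost without siCop1 DMSO replicate 1 (adjusted p = 0.0514) or siCop1 DMSO replicate 3 (0.0539). The fall of Ccl7 was lost in siCTRL KL001 in 2 of 12 alternatives, among them leaving out siCTRL KL001 replicate 3 (adjusted p = 0.051). In siCop1 KL001 it was lost without siCop1 KL001 replicate 1 (adjusted p = 0.0503), siCop1 KL001 replicate 3 (0.05), siCop1 KL001 Dexa replicate 1 (0.101) or siCop1 KL001 Dexa replicate 3 (0.123). The fall of Lif was lost in siCTRL KL001 without siCTRL KL001 Dexa replicate 3 (adjusted p = 0.064). No member fell in 1 setting and rose in another, and 10 tested members were called in none of the 4, namely Nfkb1, Nfkbib, Il11, Ccl5, Cxcl14, Cxcl16, Ptges, Tnfrsf1a, C3 and Sod2. How many of all genes were called in all 4 settings, or in none, was not counted, so these numbers only describe the list.

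The depth of the common falls can be read side by side. Il7 had log2 changes of -1.92 ± 0.24 in siCTRL DMSO, -1.81 ± 0.23 in siCTRL KL001, -1.70 ± 0.23 in siCop1 DMSO and -1.73 ± 0.24 in siCop1 KL001 (SE), and these values differed by less than 1 SE. Cx3cl1 gave -0.81 ± 0.052, -1.05 ± 0.051, -0.89 ± 0.046 and -0.93 ± 0.047 in the same order. Ccl2 gave -0.68 ± 0.12, -0.85 ± 0.11, -0.98 ± 0.11 and -0.81 ± 0.11. The subunit Relb stood at -0.86 ± 0.073, -0.78 ± 0.075, -0.69 ± 0.074 and -0.85 ± 0.077. Of the rises, Nfkbia gave 0.88 ± 0.044, 0.84 ± 0.044, 0.65 ± 0.044 and 0.76 ± 0.044, and Birc2 0.46 ± 0.050, 0.53 ± 0.050, 0.37 ± 0.050 and 0.39 ± 0.050. Lcn2 stood at 2.67 ± 0.45, 2.91 ± 0.49, 2.95 ± 0.45 and 1.35 ± 0.41, the last being the smallest. In that setting the untreated Lcn2 libraries ranged widely, at 0.429, 1.62 and 2.35 CPM. The call was lost in the fit on the groups compared (1.35, adjusted p = 0.110), without siCop1 KL001 replicate 1 (0.92, adjusted p = 0.0655) and without siCop1 KL001 Dexa replicate 1 (1.21, adjusted p = 0.0733).

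A few members were called in some settings only, which does not show that the settings differ. Cxcl10 fell in siCTRL KL001 (log2 change -1.15, SE 0.24, adjusted p = 0.000465) and in siCop1 DMSO (log2 change -0.84, SE 0.27, adjusted p = 0.0216), the latter call being lost in 7 of 12 alternatives, among them leaving out siCop1 DMSO replicate 1 (adjusted p = 0.0691), siCop1 DMSO replicate 3 (0.0527), siCop1 DMSO Dexa replicate 1 (0.0673) or siCop1 DMSO Dexa replicate 2 (0.152). Il6st, the gp130 chain, rose in 3 settings other than siCTRL DMSO, by 0.20 ± 0.066, 0.27 ± 0.066 and 0.29 ± 0.066 on the log2 scale (SE). The first of these was lost in 5 of 12 alternatives, among them leaving out siCTRL KL001 replicate 2 (adjusted p = 0.177), siCTRL KL001 replicate 3 (0.0754), siCTRL KL001 Dexa replicate 1 (0.0947) or siCTRL KL001 Dexa replicate 2 (0.0541). Rela fell in 3 settings and missed the threshold in siCop1 KL001 (adjusted p = 0.0562), where it passed in 5 of 12 alternatives. Its call in siCTRL KL001 was lost without siCTRL KL001 replicate 2 (adjusted p = 0.0626) or siCTRL KL001 Dexa replicate 3 (0.062) and with the 4 libraries that stood apart left out (0.191), and that in siCop1 DMSO without siCop1 DMSO Dexa replicate 2 (adjusted p = 0.0643). Nfkbiz rose least in siCop1 DMSO (log2 change 0.16, SE 0.056, adjusted p = 0.0365), a call lost in 7 of 12 alternatives, among them leaving out siCop1 DMSO replicate 1 (adjusted p = 0.0748), siCop1 DMSO replicate 2 (0.0868), siCop1 DMSO replicate 3 (0.0913), siCop1 DMSO Dexa replicate 2 (0.208) or siCop1 DMSO Dexa replicate 3 (0.0665).

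Whether the Dexa response depended on Cop1 knockdown was tested as the difference between the 2 log2 Dexa changes, siCop1 minus siCTRL. Over DMSO and KL001 together, 4 of the 44 members differed, 2 with a higher and 2 with a lower value in siCop1 cells, where 1.82% of all genes differed, 0.833% higher and 0.988% lower. The falls of Cxcl1 and Cxcl5 were smaller in siCop1 cells, the fall of Ptgs2 was larger, and the rise of Il34 was smaller. Within KL001 alone 2 members passed (0.562% of all genes, 0.264% higher and 0.298% lower), Cxcl1 and Il34. Within DMSO alone edgeR called 0 (0.67% of all genes, 0.291% higher and 0.379% lower), with 8 members at an unadjusted p below 0.05 and 0 calls by DESeq2.

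Without Dexa the Cxcl1 levels of siCTRL and siCop1 cells overlapped, and with Dexa the level was higher after Cop1 knockdown. In DMSO the siCop1 libraries measured 28.8, 26.2 and 26.9 CPM without Dexa and 17.3, 19.7 and 18.7 CPM with it, against 27.99, 27.7 and 27.7 and 14.6, 12.6 and 15.7 CPM in siCTRL. Under KL001 the siCop1 libraries measured 27.0, 29.3 and 30.3 CPM and 16.4, 17.7 and 16.1 CPM, against 29.5, 31.7 and 35.3 and 13.01, 13.5 and 14.9 CPM in siCTRL. With Dexa, every siCop1 library stood above every siCTRL library of the same compound. Dexa left 51.5% of the control level in siCTRL DMSO and 68.0% in siCop1 DMSO, and 42.9% against 58.1% under KL001. The difference of the log2 changes was 0.42 ± 0.074 averaged over both compounds (SE; adjusted p = 0.000847), a call that held in every alternative run. It was 0.40 ± 0.10 in DMSO alone (adjusted p = 0.0685) and 0.44 ± 0.10 under KL001 alone (adjusted p = 0.0474). The call under KL001 alone was lost in 14 of 18 alternatives, among them leaving out siCTRL KL001 replicate 3 (adjusted p = 0.153), siCTRL KL001 Dexa replicate 1 (0.185), siCTRL KL001 Dexa replicate 2 (0.175), siCTRL KL001 Dexa replicate 3 (0.0501), siCop1 KL001 replicate 1 (0.153), siCop1 KL001 replicate 2 (0.0791), siCop1 KL001 replicate 3 (0.0535), siCop1 KL001 Dexa replicate 1 (0.0889), siCop1 KL001 Dexa replicate 2 (0.206) or siCop1 KL001 Dexa replicate 3 (0.0674).

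Cxcl5 also kept a higher level with Dexa after Cop1 knockdown, but unlike Cxcl1 its siCTRL and siCop1 libraries did not overlap without Dexa either. It measured 309.8, 278 and 282 CPM in siCop1 DMSO and 164, 182 and 168 CPM in siCop1 DMSO Dexa libraries. Under KL001 the siCTRL libraries went from 224, 205 and 248 to 115, 113 and 120.1 CPM and the siCop1 libraries from 249, 256 and 252 to 154, 160.0 and 160.0 CPM. The Dexa libraries of siCop1 cells were all above those of siCTRL cells. The averaged difference was 0.25 ± 0.058 (SE; adjusted p = 0.0197). It was lost without siCTRL DMSO Dexa replicate 2 (0.22, adjusted p = 0.0683), without siCTRL DMSO Dexa replicate 3 (0.24, adjusted p = 0.0507) and without siCTRL KL001 Dexa replicate 2 (0.23, adjusted p = 0.0688).

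Il34 rose with Dexa in every setting, and less so after Cop1 knockdown. The siCop1 DMSO libraries went from 6.595, 6.02 and 6.13 CPM to 9.15, 8.60 and 8.87 CPM and the siCop1 KL001 libraries from 7.14, 6.37 and 7.92 CPM to 11.5, 10.7 and 10.2 CPM. In siCTRL KL001 cells the step was from 5.09, 5.47 and 5.995 CPM to 11.5, 12.2 and 12.6 CPM. Dexa brought Il34 to 201% and 219.6% of its level in siCTRL cells, in DMSO and KL001, and to 142% and 151% in siCop1 cells. The averaged difference was -0.52 ± 0.093 (SE; adjusted p = 0.00103) and held in every alternative run. The difference under KL001 alone was -0.54 ± 0.13 (adjusted p = 0.0474), and it was lost in 12 of 18 alternatives, among them leaving out siCTRL KL001 replicate 1 (adjusted p = 0.137), siCTRL KL001 replicate 2 (0.0761), siCTRL KL001 Dexa replicate 1 (0.0527), siCTRL KL001 Dexa replicate 2 (0.0961), siCTRL KL001 Dexa replicate 3 (0.13), siCop1 KL001 replicate 1 (0.107), siCop1 KL001 replicate 3 (0.216), siCop1 KL001 Dexa replicate 2 (0.127) or siCop1 KL001 Dexa replicate 3 (0.132). In DMSO alone it was -0.50 ± 0.13 (adjusted p = 0.0846).

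Ptgs2 differed in the other direction, since Cop1 knockdown raised its level without Dexa more than with it. The siCop1 DMSO libraries measured 37.4, 37.9 and 35.7 CPM without Dexa and 15.7, 16.0 and 15.5 CPM with it. Under KL001 they measured 35.3, 35.4 and 35.3 and 16.4, 16.6 and 18.2 CPM, against 29.2, 22.9 and 29.1 and 14.7, 14.9 and 15.4 CPM in siCTRL cells. The 12 libraries with Dexa lay between 13.7 and 18.2 CPM, and the 12 without it between 22.9 and 37.9 CPM. The averaged difference was -0.27 ± 0.066 (SE; adjusted p = 0.0218), and it was lost without siCop1 KL001 Dexa replicate 1 (-0.26, adjusted p = 0.0514). Nfkbia and the IkB-like gene Nfkbiz did not pass this test. Their averaged differences were -0.16 ± 0.044 (SE, adjusted p = 0.0663) and -0.22 ± 0.059 (SE, adjusted p = 0.0568). Both lay near the threshold, and some alternatives called them while others did not. Nfkbia passed with no filter (adjusted p = 0.0427) and with the 4 libraries that stood apart left out (0.0161), among others. Nfkbiz passed with RLE scaling (adjusted p = 0.0454) and without siCTRL DMSO replicate 2 (0.0104), among others.

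KL001 moved the Dexa response of 1 member when siCTRL and siCop1 were averaged (0.183% of all genes, 0.129% higher and 0.0542% lower). Cxcl12 fell further with Dexa under KL001, from 604, 576 and 592 to 353, 341 and 333 CPM in siCTRL cells and from 662, 653 and 669.7 to 413, 415 and 404 CPM in siCop1 cells. In DMSO the siCop1 libraries went from 635, 649 and 663 to 439, 460.2 and 436 CPM, next to the siCTRL values given above. The averaged difference for Cxcl12 was -0.16 ± 0.030 (SE, adjusted p = 0.0143), and it held in every alternative run. Vcam1 had an averaged difference of -0.19 with no call, but it passed in some alternatives. These were no filter (adjusted p = 0.0152), DESeq2 (0.0443) and the omission of the 4 libraries that stood apart (0.0354), among others. In siCTRL cells alone edgeR called 0 members (0% of all genes), with 7 at an unadjusted p below 0.05, and in siCop1 cells alone 0 (0.0677% of all genes, 0.0474% higher and 0.0203% lower), with 6 at an unadjusted p below 0.05; DESeq2 called 0 in both.

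**Figure D4:**
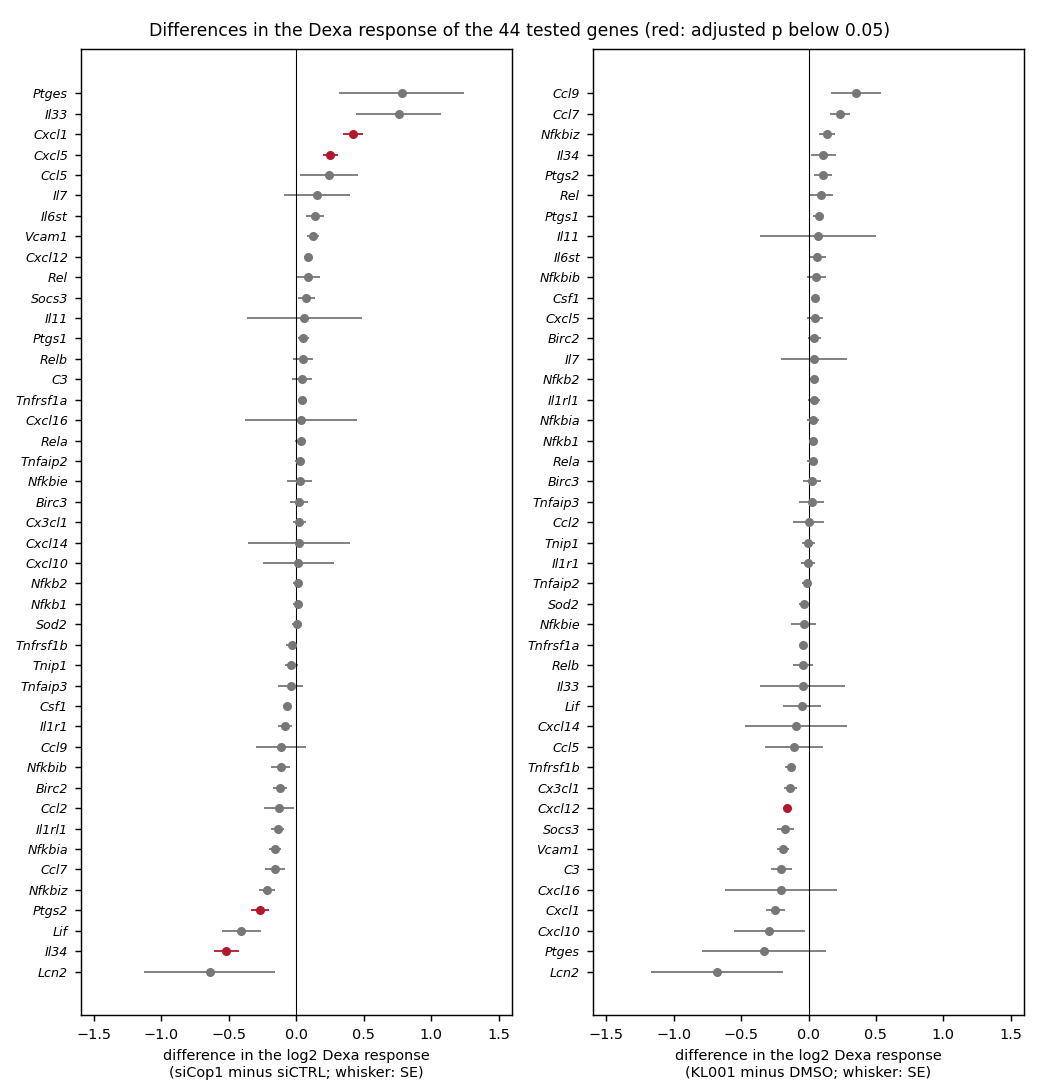
Difference in the log2 Dexa response of the 44 tested genes, siCop1 minus siCTRL on the left and KL001 minus DMSO on the right (points; whiskers are the SE; red marks an adjusted p below 0.05). On the left Cxcl1 at 0.42 and Cxcl5 at 0.25 stand to the right of 0, and Ptgs2 at -0.27 and Il34 at -0.52 to the left; on the right only Cxcl12, at -0.16, is red, and the widest whiskers belong to genes with few counts.

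Cop1 knockdown itself raised C3, Il1rl1, Cx3cl1, Nfkbiz and Ptgs1 and lowered Tnfaip2, with and without Dexa or KL001. In DMSO without Dexa 15 of the 44 members changed, 11 higher and 4 lower, where 29.4% of all tested genes changed, 12.8% higher and 16.6% lower. In DMSO with Dexa 12 were higher and 10 lower (31.1%, 14.4% higher and 16.7% lower), under KL001 13 and 7 (32.7%, 14.5% higher and 18.2% lower), and under KL001 with Dexa 15 and 11 (30.1%, 13.7% higher and 16.3% lower). In the same order, the shares of the tested members that changed were 34.1%, 50%, 45.5% and 59.1%. The first is near that of all genes in total. By direction it was 25% higher and 9.09% lower, beside the 12.8% and 16.6% of all genes. The 8 members higher in all 4 comparisons were Nfkbiz, Cxcl5, Cx3cl1, Ptgs1, Vcam1, Il1rl1, Tnfrsf1b and C3, and the 3 lower in all 4 were Nfkb1, Tnfaip2 and Ccl7. The share of all genes called in all 4 was not counted. The call of Cxcl5 was lost in DMSO without siCTRL DMSO replicate 2 (adjusted p = 0.123), siCTRL DMSO replicate 3 (0.0773) or siCop1 DMSO replicate 1 (0.169). Under KL001 it was lost in 6 of 12 alternatives, among them leaving out siCTRL KL001 replicate 1 (adjusted p = 0.0821), siCTRL KL001 replicate 2 (0.208), siCop1 KL001 replicate 1 (0.0576), siCop1 KL001 replicate 2 (0.0963) or siCop1 KL001 replicate 3 (0.0674). The call of Tnfrsf1b was lost in DMSO without siCTRL DMSO replicate 1 (adjusted p = 0.0547) and in DMSO with Dexa without siCTRL DMSO Dexa replicate 1 (adjusted p = 0.0718). Under KL001 with Dexa it was lost in 5 of 12 alternatives, among them leaving out siCTRL KL001 Dexa replicate 1 (adjusted p = 0.0883), siCTRL KL001 Dexa replicate 3 (0.0747), siCop1 KL001 Dexa replicate 1 (0.0751) or siCop1 KL001 Dexa replicate 2 (0.0785). The call of Nfkb1 was lost in DMSO with no filter (adjusted p = 0.0505). In DMSO with Dexa it was lost in 6 of 12 alternatives, among them leaving out siCTRL DMSO Dexa replicate 2 (adjusted p = 0.0984), siCop1 DMSO Dexa replicate 2 (0.122) or siCop1 DMSO Dexa replicate 3 (0.0679). Under KL001 it was lost in 4 of 12, among them leaving out siCTRL KL001 replicate 1 (adjusted p = 0.0969) or siCop1 KL001 replicate 1 (0.0512). The call of Ccl7 was lost under KL001 with Dexa without siCTRL KL001 Dexa replicate 3 (adjusted p = 0.06), siCop1 KL001 Dexa replicate 1 (0.0604) or siCop1 KL001 Dexa replicate 3 (0.0723). These comparisons share no library with each other, but they share libraries with the Dexa comparisons above.

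C3, the central complement component, measured 40.8, 46.4 and 48.3 CPM in siCop1 DMSO libraries against 21.4, 20.2 and 20.1 CPM in siCTRL DMSO libraries. The lowest knockdown library was far above the highest control (log2 change 1.132, SE 0.072, adjusted p = 9.09e-13). The rise was 1.06 ± 0.071 with Dexa, 1.14 ± 0.076 under KL001 and 1.29 ± 0.079 under both (log2, SE). Il1rl1, the interleukin 33 receptor, measured 161, 159 and 168 CPM against 84.5, 83.4 and 87.8 CPM. Its groups were equally separate (log2 change 0.93, SE 0.048, adjusted p = 3.54e-15), and the other 3 settings gave log2 changes of 0.80, 1.05 and 0.90. Il33, the ligand of that receptor, rose in the 2 Dexa settings (0.87 ± 0.33 in DMSO and 1.21 ± 0.33 under KL001), from below 1 CPM. The first of these calls was lost in 7 of 12 alternatives, among them leaving out siCTRL DMSO Dexa replicate 1 (adjusted p = 0.123), siCTRL DMSO Dexa replicate 2 (0.0854), siCTRL DMSO Dexa replicate 3 (0.0669), siCop1 DMSO Dexa replicate 1 (0.0991) or siCop1 DMSO Dexa replicate 2 (0.257), and the second without siCop1 KL001 Dexa replicate 1 (0.85, adjusted p = 0.0781).

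Fractalkine, Cx3cl1, rose with siCop1 from 42.2, 41.4 and 40.6 to 74.0, 67.2 and 70.9 CPM, without overlap (log2 change 0.77, SE 0.045, adjusted p = 5.33e-14). With Dexa added, the siCop1 libraries measured 39.5, 36.4 and 38.4 CPM, so the mean of 38.1 ± 1.56 CPM stands beside 41.4 ± 0.802 CPM in untreated control cells (SD, n = 3). Vcam1 showed a like pattern, with 99.0 ± 4.03 CPM in siCop1 DMSO, 75.0 ± 2.11 CPM after Dexa and 77.1 ± 2.71 CPM in siCTRL DMSO cells. No test was made of these diagonal pairs of groups. The siCop1 effect on Vcam1 was a log2 change of 0.36 (SE 0.042, adjusted p = 8.12e-08). Ptgs1 rose from 69.6, 70.8 and 68.4 to 98.6, 100.1 and 101 CPM (log2 change 0.52, SE 0.038, adjusted p = 4.88e-12) and Ptgs2 from 25.8 to 37.0 CPM (log2 change 0.52, SE 0.059, adjusted p = 4.73e-08). Nfkbiz, the nuclear IkB-like gene, rose from 12.6, 14.8 and 13.3 to 20.4, 20.2 and 20.2 CPM, all knockdown libraries being higher (log2 change 0.58, SE 0.060, adjusted p = 7.66e-09).

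Fewer members fell with siCop1 than rose. Tnfaip2 went from 91.0, 93.8 and 90.4 CPM to 72.2, 71.8 and 73.6 CPM, separate groups (log2 change -0.34, SE 0.035, adjusted p = 7.34e-09). Nfkb1, which had no call with Dexa, fell from 113, 112 and 111 CPM to 104, 101 and 104 CPM, a step to 91.9% of control (log2 change -0.12, SE 0.030, adjusted p = 0.0025). Ccl7 went from 17.1, 17.1 and 18.2 CPM to 15.9, 15.7 and 13.8 CPM (log2 change -0.21, SE 0.069, adjusted p = 0.0241). Its call was lost with DESeq2 (-0.20, adjusted p = 0.0799), without siCTRL DMSO replicate 3 (-0.17, adjusted p = 0.119) and without siCop1 DMSO replicate 3 (-0.15, adjusted p = 0.166). The fourth member lower in DMSO, named here after its values were seen, was Cxcl14, a chemokine of epithelia and fibroblasts, at 0.649, 0.716 and 0.596 and 0.224, 0.389 and 0.282 CPM (log2 change -1.13, SE 0.31, adjusted p = 0.0064). This call was lost with no filter (adjusted p = 0.0516), with DESeq2 (0.0691) and without siCop1 DMSO replicate 1 (-0.96, adjusted p = 0.0539). With Dexa present, Lif was lower in siCop1 cells (log2 change -0.69, SE 0.15, adjusted p = 0.000936 in DMSO), and Il34 was lower in DMSO with Dexa (-0.26) and higher under KL001 without it (0.37), the only member called in both directions. The Il34 call in DMSO with Dexa (adjusted p = 0.0193) was lost with DESeq2 (-0.26, adjusted p = 0.0632), without siCTRL DMSO Dexa replicate 3 (-0.18, adjusted p = 0.151) and without siCop1 DMSO Dexa replicate 2 (-0.24, adjusted p = 0.0703).

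Marker sums also differed with the siRNA. The heart muscle markers summed to 17.0 to 60.02 CPM in the siCTRL DMSO libraries and to 1.01 to 3.03 CPM in the siCop1 DMSO libraries. The fibroblast markers summed to 48046 to 50771 CPM in siCTRL DMSO and 42272 to 43672 CPM in siCop1 DMSO libraries. Macrophages also make C3, and their markers summed to 4.55 to 5.48 CPM and 4.62 to 9.41 CPM in the same groups, and to 2.92 to 4.96 CPM in siCTRL KL001 Dexa and 7.76 to 15.6 CPM in siCop1 KL001 Dexa libraries. Of the 10, Adgre1 was at 0 in 16 libraries, Tyrobp in 13, and C1qa, Cx3cr1, C1qb and Ptprc in 5 to 10. Lyz2, Csf1r, Cd68 and Fcer1g were at 0 in none, and Lyz2 reached 11.3 CPM. The part of these differences in the siCop1 results was not tested.

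KL001 changed fewer members. It altered 9 of 44 in siCTRL cells without Dexa, 5 higher and 4 lower (6.73% of all tested genes changed, 3.22% higher and 3.51% lower), and 9 in siCTRL cells with Dexa, again 5 and 4 (10.6%, 4.98% higher and 5.58% lower). In siCop1 cells it altered 8 without Dexa, 3 higher and 5 lower (4.09%, 1.77% higher and 2.32% lower), and 8 with Dexa, 4 and 4 (5.46%, 2.5% higher and 2.97% lower). Tnfaip2 and Il1rl1 were higher and Ptgs1 and C3 lower in all 4 comparisons, and 29 tested members were called in none, among them Nfkb1, Rela, Relb, Rel, Nfkbia, Tnfaip3, Ccl2, Cxcl1 and Ptgs2. Some of these passed in an alternative. Ccl2 was higher with KL001 in siCTRL cells with no filter (adjusted p = 0.0105), without siCTRL KL001 replicate 2 (log2 change 0.45 in place of 0.29, adjusted p = 0.000556) and with the 4 libraries that stood apart left out (0.45, adjusted p = 0.000655). In siCTRL cells Cxcl1 passed with no filter (adjusted p = 0.0133) and without siCTRL KL001 replicate 1 (0.0144), and Ptgs2 without siCTRL KL001 replicate 2 (0.0378). Tnfaip3 passed in siCTRL Dexa cells without siCTRL DMSO Dexa replicate 2 (adjusted p = 0.03), and Relb in siCop1 Dexa cells in the fit on the groups compared (0.0459). How many of all genes were called in all 4 KL001 comparisons, or in none, was not counted. In the siCTRL DMSO setting these comparisons share control libraries with the Dexa and siCop1 comparisons.

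C3 was lower with KL001 in siCTRL Dexa cells, where it measured 21.8, 22.9 and 24.6 CPM without KL001 and 15.4, 15.7 and 14.3 CPM with it. Those groups did not overlap (log2 change -0.61, SE 0.083, adjusted p = 1.15e-05). In siCop1 Dexa cells it went from 46.9, 50.6 and 46.6 CPM to 38.4, 35.5 and 37.1 CPM, also separate (log2 change -0.38, SE 0.068, adjusted p = 0.000526). Without Dexa the calls did not hold when some single libraries were left out. In siCTRL cells C3 went from 20.6 ± 0.683 to 16.8 ± 2.65 CPM (log2 change -0.29, SE 0.082, adjusted p = 0.0257), a call lost in 7 of 12 alternatives, among them leaving out siCTRL DMSO replicate 1 (adjusted p = 0.0946), siCTRL DMSO replicate 2 (0.0528), siCTRL DMSO replicate 3 (0.0548), siCTRL KL001 replicate 2 (0.151) or siCTRL KL001 replicate 3 (0.118). In siCop1 cells the log2 change was -0.29 (adjusted p = 0.00831), lost without siCop1 DMSO replicate 2 (-0.27, adjusted p = 0.0522), siCop1 DMSO replicate 3 (-0.24, adjusted p = 0.082) or siCop1 KL001 replicate 1 (-0.27, adjusted p = 0.0587). The KL001 effect on C3 was not shown to differ with Dexa, the averaged difference being -0.20 ± 0.075 (SE; adjusted p = 0.614).

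Il1rl1 rose with KL001 from 84.5, 83.4 and 87.8 to 104, 98.7 and 106 CPM in siCTRL cells (log2 change 0.27, SE 0.049, adjusted p = 0.00055) and from 161, 159 and 168 to 206, 221 and 209 CPM in siCop1 cells (log2 change 0.38, SE 0.045, adjusted p = 1.20e-06). The 4 groups without Dexa, in the order siCTRL DMSO, siCTRL KL001, siCop1 DMSO and siCop1 KL001, did not overlap with their neighbours. With Dexa the 2 log2 changes were 0.32 and 0.42. Tnfaip2 rose from 91.0, 93.8 and 90.4 to 104, 105 and 108 CPM (log2 change 0.21, SE 0.034, adjusted p = 0.000182), against its fall with siCop1 and with Dexa, and the 4 KL001 changes lay between 0.20 and 0.24. Tnfrsf1b, the second tumour necrosis factor receptor, rose from 44.3, 46.4 and 46.1 to 52.7, 53.2 and 52.3 CPM in siCTRL (log2 change 0.21, SE 0.042, adjusted p = 0.00184) and from 51.1, 49.3 and 50.8 to 59.5, 62.5 and 61.7 CPM in siCop1 cells (log2 change 0.28, SE 0.041, adjusted p = 3.40e-05). These groups were separate. With Dexa its call in siCTRL cells (adjusted p = 0.0413) was lost in 9 of 12 alternatives, among them leaving out siCTRL DMSO Dexa replicate 1 (adjusted p = 0.37), siCTRL DMSO Dexa replicate 2 (0.0686), siCTRL KL001 Dexa replicate 1 (0.0553), siCTRL KL001 Dexa replicate 2 (0.175) or siCTRL KL001 Dexa replicate 3 (0.11).

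**Figure D5:**
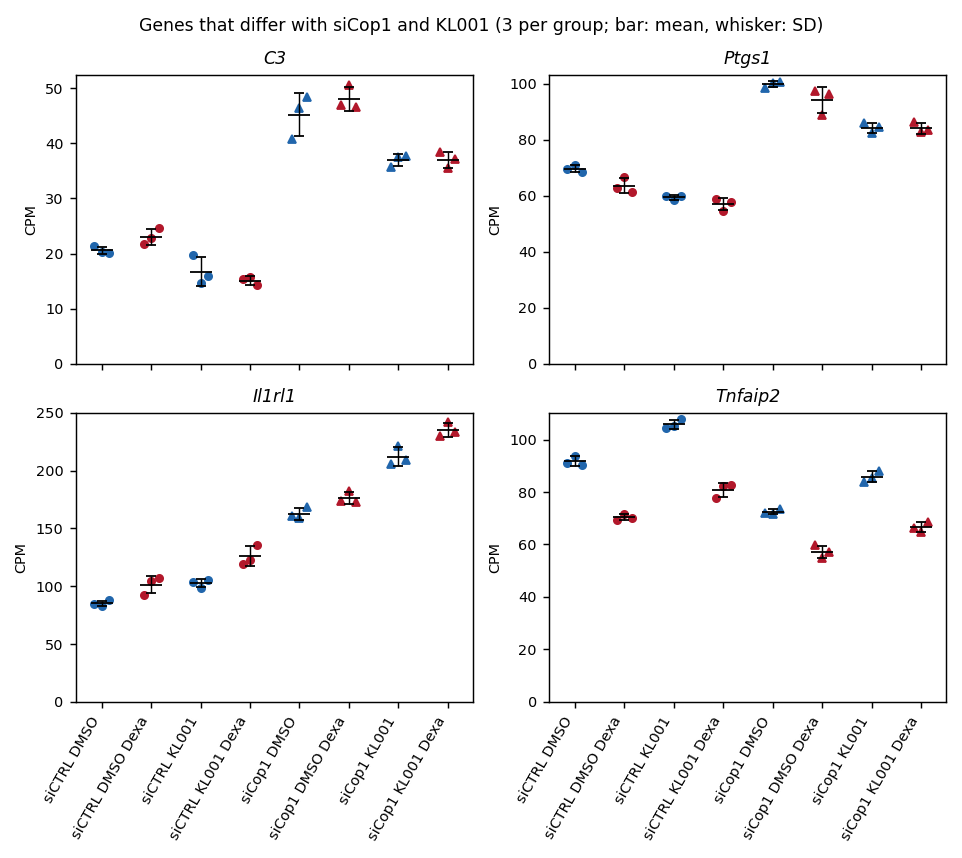
CPM (vertical axis) of 4 genes that differed with siCop1 and with KL001, for each library of the 8 groups (circles siCTRL, triangles siCop1, blue without Dexa, red with Dexa; horizontal bar the mean, whisker the SD, 3 libraries per group). Triangles lie above circles for C3, Ptgs1 and Il1rl1 and, at the same compound and Dexa treatment, below them for Tnfaip2; the KL001 groups are lower than the DMSO groups for C3 and Ptgs1 and higher for Il1rl1 and Tnfaip2.

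Ptgs1 fell with KL001 in all 4 settings, by log2 changes of -0.23 ± 0.039 and -0.24 ± 0.037 without Dexa and -0.16 ± 0.040 and -0.16 ± 0.037 with it (SE), in siCTRL and siCop1 cells in that order. With Dexa, the siCTRL call was lost in 3 of 12 alternatives, among them leaving out siCTRL DMSO Dexa replicate 2 (-0.12, adjusted p = 0.0688) or siCTRL KL001 Dexa replicate 2 (-0.13, adjusted p = 0.0737). The siCop1 call with Dexa was lost without siCop1 DMSO Dexa replicate 1 (-0.14, adjusted p = 0.0617). Cxcl12 was lowered by KL001 in Dexa-treated siCTRL cells, from 416, 414 and 394 to 353, 341 and 333 CPM, groups that did not overlap (log2 change -0.25, SE 0.030, adjusted p = 8.51e-07). Without Dexa it stood at 626 ± 14.1 and 591 ± 14.2 CPM with no call (SD, n = 3; adjusted p = 0.0911). Ccl9, a monocyte attractant, was higher with KL001 in both Dexa settings, from 1.98, 2.15 and 1.71 to 2.23, 3.42 and 3.37 CPM in siCTRL (log2 change 0.63, SE 0.18, adjusted p = 0.0245) and from 1.09, 1.43 and 1.22 to 1.98, 2.09 and 2.23 CPM in siCop1 cells (log2 change 0.75, SE 0.20, adjusted p = 0.0249). At these low levels each of the 2 calls was lost in 5 of 12 alternatives. These were, with the joint omission of the 4 libraries that stood apart, leaving out siCTRL DMSO Dexa replicate 1 (adjusted p = 0.0692), siCTRL DMSO Dexa replicate 3 (0.101), siCTRL KL001 Dexa replicate 2 (0.127) or siCTRL KL001 Dexa replicate 3 (0.13) for siCTRL and siCop1 DMSO Dexa replicate 1 (adjusted p = 0.127), siCop1 DMSO Dexa replicate 3 (0.0889), siCop1 KL001 Dexa replicate 2 (0.0712) or siCop1 KL001 Dexa replicate 3 (0.1) for siCop1 cells. The fibroblast marker sum was lower with KL001 too, at 40881 to 44888 CPM in siCTRL KL001 against 48046 to 50771 CPM in siCTRL DMSO libraries, and its part in these changes was not tested.

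The other genes of the pathway changed in both directions with Dexa. Of 45 listed kinases, adaptors and receptors that carry signals to NF-kB, 44 were tested, and 6 rose and 6 fell in siCTRL DMSO cells (median log2 change -0.04, against -0.01 over all genes). These counts are near the shares of all genes, 12.7% higher and 14.1% lower. The examples with the largest changes were the rise of Irak3, an inhibitor of interleukin 1 receptor signalling (log2 change 0.78, SE 0.22, adjusted p = 0.00832), the fall of the bacterial lipopeptide receptor Tlr2 (log2 change -0.70, SE 0.046, adjusted p = 2.53e-13), the rise of the kinase gene Map3k8 (log2 change 0.70, SE 0.13, adjusted p = 0.000116) and the fall of the adaptor Traf3 (log2 change -0.42, SE 0.052, adjusted p = 1.59e-07). Of the 44, 1 showed a Dexa response that differed with Cop1 knockdown, Tlr2, its fall being smaller in siCop1 cells by 0.23 ± 0.048 (SE; adjusted p = 0.00605). KL001 changed 1 of the 44 in siCTRL cells, again Tlr2 (log2 change -0.15, SE 0.044, adjusted p = 0.029). That call was lost in 8 of 12 alternatives, among them leaving out siCTRL DMSO replicate 1 (adjusted p = 0.0769), siCTRL DMSO replicate 2 (0.0648), siCTRL DMSO replicate 3 (0.078), siCTRL KL001 replicate 1 (0.0721) or siCTRL KL001 replicate 2 (0.0854).

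Genes listed for a link to glucocorticoid action or to repression of inflammation mostly rose with Dexa. The list includes the receptor gene Nr3c1 and the corepressor gene Ncor1, and not every gene in it is a repressor of inflammation. It was chosen with earlier results of these data known, so the number that rose only describes the list. Of 13 listed, 12 were tested, and 10 rose and 1 fell with Dexa in siCTRL DMSO cells (median log2 change 0.89), beside 12.7% and 14.1% of all genes. Irak3 is in this list and in the one before. Fkbp5, a chaperone partner of the glucocorticoid receptor, rose by 4.30 ± 0.036, Tsc22d3, the gene of GILZ, by 2.73 ± 0.031, the transcription factor gene Klf15 by 2.38 ± 0.10 and the kinase gene Sgk1 by 1.82 ± 0.031 (log2, SE), and the 1 fall was that of the receptor gene Nr3c1 (log2 change -0.64, SE 0.077, adjusted p = 1.19e-06). After Cop1 knockdown the Dexa response was lower for 4 of the 12, over DMSO and KL001 together, beside 0.988% of all genes. These were Fkbp5 (-0.70 ± 0.034, adjusted p = 1.29e-14), the corepressor gene Tle1 (-0.44 ± 0.064, adjusted p = 5.76e-05), Zfp36, whose product destabilises cytokine mRNA (-0.35 ± 0.054, adjusted p = 0.000116), and the MAP kinase phosphatase gene Dusp1 (-0.26 ± 0.049, adjusted p = 0.00188). In Dexa-treated DMSO cells 9 of the 12 were lower with siCop1 than with siCTRL and 0 were higher, beside 16.7% and 14.4% of all genes. These values stand beside the smaller falls of Cxcl1 and Cxcl5, the larger fall of Ptgs2 and the smaller rise of Il34 in siCop1 cells. The other 40 of the 44 tested members had no called difference, and no link between these results was tested.

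Other ligands and receptors of the same families numbered 53, of which 31 were tested, and 8 rose and 9 fell with Dexa in siCTRL DMSO cells (median log2 change 0.05), beside 12.7% and 14.1% of all genes. Il1rn, the secreted interleukin 1 receptor antagonist, rose by 3.36 ± 0.054 and Il6ra, the ligand-binding interleukin 6 receptor, by 1.801 ± 0.079 (log2, SE). The stem cell factor gene Kitl rose as well (log2 change 1.09, SE 0.061, adjusted p = 3.48e-12), and the prostaglandin E receptor gene Ptger4 fell (log2 change -0.88, SE 0.17, adjusted p = 0.000123). In this list siCop1 in DMSO raised 6 and lowered 7, beside 12.8% and 16.6% of all genes.

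The 10 members that did not pass the filter were Traf1, Il6, Il15, Csf2, Ccl8, Ccl20, Cxcl2, Icam1, Saa3 and Nos2. All but Saa3 stayed below 0.484 CPM in every library, where 3 counts correspond to 0.11 to 0.14 CPM, and Saa3 did so in all libraries but siCTRL KL001 replicates 1 and 3. Il6, the reference cytokine of the pathway, measured 0.180, 0.210 and 0.238 CPM in siCTRL DMSO and 0.195, 0.0877 and 0.159 CPM in siCTRL DMSO Dexa libraries. These ranges overlapped. In siCTRL KL001 it measured 0.427, 0.206 and 0.348 CPM without Dexa and 0.199, 0.132 and 0.0823 CPM with it, ranges that came close without overlapping. No test of Il6 was made, at 1 to 11 counts in a library. Cxcl2, whose promoter shares its kappaB letters with Cxcl1, did not exceed 0.157 CPM in any library, and Csf2 was at 0 in 21 libraries and Ccl8 in 17. Icam1, an adhesion molecule like Vcam1, lay between 0.0390 and 0.463 CPM.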

How the data were processed

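RNA of mouse embryonic fibroblasts was sequenced in 24 libraries, 3 in each of 8 groups given by the sample titles. Total RNA was purified on Qiagen columns, per the labels' protocols, and libraries were made with a stranded mRNA kit and read from 1 end on a HiSeq. The authors deposited 1 table of raw counts per gene, whole numbers with no normalization; per the submitters' processing notes the tools were bcl2fastq 1.8.4, STAR 2.4.5a, featureCounts, Subread 1.4.6-p3, DESeq2 and Picard 1.126, with the builds GRCm38 and mm10. The strand setting of the counting is not given in the sources used here.

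The deposited counts were tested with edgeR 4.0.16 and limma 3.58.1 in R 4.3.3: TMM scaling, a filter (filterByExpr, minimum count 10, total 15) that kept 14772 of 47480 genes, 1 mean per group over all 24 libraries, the robust quasi-likelihood test, two-sided, and Benjamini-Hochberg adjustment over all genes tested, with 0.05 as the threshold. The 18 contrasts compared groups differing in 1 factor, or differences of Dexa changes. Levels are CPM from these counts. On simulated counts for Dexa in siCTRL DMSO, with 200 of 14772 genes changed, 64% of those changed by log2 0.5 and 84% of those changed by log2 1 were called, with 3 false calls.

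The members and lists were chosen with earlier results of these data known. Per-library values were given for the members with the largest called changes with Dexa, siCop1 or KL001 and a mean of at least 0.5 CPM, for those with a called difference between Dexa changes, and for 10 fixed members of the pathway; other members are named with summary values. Alternatives were DESeq2 1.42.0, RLE scaling, no filter, the replicate number as a block, only the groups compared, each library left out, and, chosen after seeing the data, 4 libraries left out together. Promoters came from the RefSeq table, which has no entry for 13 of the 54 members. Tables were handled in Python 3.11.15 with pandas 2.3.3 and figures drawn with matplotlib 3.10.9.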

Additional observations from a re-analysis of the deposited data

Results flagged for a closer look

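The response to Dexa differed between groups, by a tested difference of 2 Dexa changes, in 7 results on 5 members. Averaged over DMSO and KL001, the log2 Dexa change in siCop1 cells minus that in siCTRL cells was 0.42 for the chemokine gene Cxcl1, 0.25 for Cxcl5, -0.27 for Ptgs2 and -0.52 for Il34. Under KL001 alone the same difference was 0.44 for Cxcl1 and -0.54 for Il34. Averaged over siCTRL and siCop1, the Dexa change under KL001 minus that in DMSO was -0.16 for Cxcl12. Their cause was not tested.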

How the results depend on the processing

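Of 230 calls of a member in a comparison, 151 held under every alternative run for them and 0 changed direction. RLE scaling kept 228 of 230, no filter 205 of 230, DESeq2 201 of 229, the fit on the groups compared 205 of 224, and the joint omission of 4 libraries, chosen after seeing the data, 194 of 230. Of 19 results on named genes of other lists, 18 held throughout.

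Leaving out single libraries gave 24 to 25 members changed by Dexa in siCTRL DMSO, 23 to 29 in siCTRL KL001, 22 to 25 in siCop1 DMSO and 20 to 24 in siCop1 KL001. For siCop1 the ranges were 12 to 16 in DMSO, 19 to 20 in DMSO Dexa, 15 to 20 in KL001 and 16 to 19 in KL001 Dexa, and for KL001 they were 5 to 8 in siCTRL, 4 to 8 in siCTRL Dexa, 5 to 6 in siCop1 and 5 to 8 in siCop1 Dexa. For siCop1 by Dexa the range was 0 to 1 in DMSO, 0 to 2 under KL001 and 3 to 6 averaged, and for KL001 by Dexa 0 in siCTRL and in siCop1 and 1 to 2 averaged.

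Counts of members moved by more than 1.5 times in these further cases, and the cause was not tested. For siCop1 by Dexa under KL001 (2 members), RLE scaling gave 1, no filter 4, and DESeq2, the groups compared and the 4-library omission 0 each. For siCop1 by Dexa in DMSO (0), no filter gave 4, and the groups compared and the 4-library omission 1 each. Averaged, siCop1 by Dexa (4) became 7 with no filter, and KL001 by Dexa (1) became 2 with no filter, DESeq2 or the 4-library omission. KL001 by Dexa in siCop1 (0) became 1 with no filter. KL001 in siCTRL (9) became 4 in the groups compared, and KL001 in siCTRL Dexa (9) became 4 with the 4-library omission.

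Replicate numbers were shared between groups, and nothing in the labels says what a number marks. The deviations of same-number libraries correlated unevenly: over 84 pairs r ran from -0.290 to 0.464 with a median of 0.0119, 19 pairs were above 0.1, and 13 of 24 libraries, not all, were closest to their own number. The numbers were therefore not taken to pair the libraries. With the number as a block, 25 members changed with Dexa in siCTRL DMSO and 29, 29 and 23 in the other settings, and 227 of 230 calls held. At this depth 10 members could not be tested, and members near 1 CPM, such as Lcn2, Il33 and Ccl9, had SEs of 0.18 or more on the log2 scale.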

Other observations

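Some of the untested members were highest in siCTRL KL001 replicates 1 and 3. Saa3, an acute-phase gene, measured 4.51, 0.0411 and 2.98 CPM in replicates 1 to 3 of that group and at most 0.232 CPM in any other group. Nos2, the inducible nitric oxide synthase gene, measured 0.350, 0.0411 and 0.193 CPM there and at most 0.0386 CPM in the other groups. The Il6 values of the same libraries were 0.427, 0.206 and 0.348 CPM. In each case replicate 2 was the lowest of the 3 libraries. It is also the library with a heart muscle marker sum of 83.4 CPM, against 0.893 and 1.12 CPM in replicates 1 and 3. The 3 genes were not tested.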
